A study of Oryzias latipes with 3 samples.

Results

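Across the genome of the medaka fish (Oryzias latipes), 295 places carried a single narrow peak of the promoter mark H3K4me3, acetylated on H3K27 and with no other H3K4me3 peak for more than 100 kb along the chromosome. They were chosen by 3 conditions on the peak lists. The H3K4me3 peak was under 2000 bp wide, it shared at least 1 bp with an H3K27ac peak, and no other H3K4me3 peak of its chromosome had an edge within 100 kb. The 295 made up 2.29% of the 12884 H3K4me3 peaks (95% Wilson interval 2.05 to 2.56) and 2.87% of the 10271 acetylated ones under 2000 bp (2.57 to 3.21). The other 9976 acetylated H3K4me3 peaks under 2000 bp are the set they are compared with below and are called the other acetylated peaks.

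Chromatin immunoprecipitation and sequencing (ChIP-seq) had been carried out on whole medaka embryos at stage 24, raised at 26 °C, with 600 embryos per sample. One peak list of H3K4me3 and one of H3K27ac, with 24027 peaks, were analysed. A second H3K27ac sample was not analysed here. The labels name no treatment or genotype. All samples came from whole embryos, so a peak does not say in which cells a mark lay, and peaks of both marks at one place may stem from different cells.

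Trimethylation of lysine 4 on histone H3 is laid down around the start sites of transcribed genes by methyltransferases of the SET1 and MLL families. Acetylation of lysine 27, the work of the acetyltransferases p300 and CBP, occurs at active promoters and at active enhancers. In vertebrate genomes, long stretches with few genes often flank genes that regulate development, and such stretches can hold distant enhancers. Stage 24 lies within somite formation, when organ rudiments are being laid out. Gene start sites in the build of the lists were not used here. Whether each of the 295 peaks marks a promoter was therefore not checked, and they are called isolated acetylated H3K4me3 peaks.

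Each mark is represented by a single list, which leaves no replicates to test a difference against. Read depth is unknown, because the lists hold no read counts. Each peak carries the score the authors deposited from their peak caller, which has no stated unit and is used only to rank or describe peaks of the same list. Intervals cover counting error only. They take peaks as independent, which clustered peaks are not, so they are likely too narrow.

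The isolation of the members was mostly moderate. The gap to the nearest H3K4me3 peak had a median of 134 kb (interquartile range 114 to 173 kb) and ran from 100.1 to 889 kb. It was at most 150 kb for 188 members (63.7%), over 200 kb for 51 (17.3%) and over 500 kb for 6. For the other acetylated peaks the median gap was 10.4 kb (interquartile range 4.70 to 21.6 kb). These gaps restate the rule. Of the members, 6 had no H3K4me3 peak on one side of their chromosome. For the 289 with a neighbour on both sides, the distance between the 2 flanking H3K4me3 peaks had a median of 383 kb (95% interval 360 to 431) and a range of 208 to 2994 kb. The longer of the 2 gaps was over 2 times the shorter for 100 of the 289.

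The limit of 100 kb did not separate visibly different peaks. Just inside it lay a 1001 bp peak at chromosome 20, 11982511 to 11983511, with a gap of 100.121 kb and an H3K4me3 score of 722. Just outside it lay a 1104 bp peak at chromosome 13, 20240990 to 20242093, with a gap of 99.99 kb and a score of 2225. The 5 members nearest the limit had scores between 103 and 1626, and the 5 excluded peaks nearest to it had scores between 101 and 2225. With so few peaks of nearly equal gaps, a difference at the limit could not have been shown. At the width limit, the widest member measured 1986 bp, at chromosome 16, 25724075 to 25726060, with a score of 3100. The narrowest isolated acetylated peak left out measured 2008 bp, at chromosome 9, 15678841 to 15680848, with a score of 1221.

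Members occurred on all 24 chromosomes, between 6 on chromosome 6 and 23 on chromosome 3. On chromosome 3 they made up 5.25% of the acetylated H3K4me3 peaks under 2000 bp (3.52 to 7.76), against 1.31% on chromosome 6 (0.600 to 2.82) and 1.31% on chromosome 4 (0.636 to 2.68). Chromosomes 21 and 18 followed chromosome 3, at 4.79% and 4.72%. The chromosomes with fewer H3K4me3 peaks per Mb held more members per Mb, with a Spearman correlation of -0.68 over the 24 chromosomes. Both densities come from the same list, and wide spacing on a sparse chromosome is what the rule selects.

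In the order of the H3K4me3 list, 204 members had no member directly before or after them. Another 76 lay in 38 pairs that followed each other directly, and 15 lay in 5 runs of 3. Members made up 2.29% of all H3K4me3 peaks, so adjacent members were more frequent than that share. The rule itself favours this, because adjacent members share a gap of over 100 kb. The longest run of 3 spanned 489 kb at chromosome 3, 5501930 to 5991314, and had 3 H3K27ac peaks away from H3K4me3 within 50 kb of its members. The most extended pair covered 1069 kb at chromosome 14, 5854942 to 6923759. The nearest H3K4me3 neighbour was itself acetylated for 82.7% of members (78.0 to 86.6) and for 87.2% of the other acetylated peaks (86.5 to 87.8). That neighbour had a median H3K4me3 score of 674 (481 to 901) beside members and 1036 (993 to 1073) beside the other acetylated peaks.

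Among H3K4me3 peaks under 2000 bp, the isolated ones had a smaller acetylated share than the rest. Of the 386 isolated H3K4me3 peaks under 2000 bp, 295 overlapped H3K27ac, or 76.4% (71.9 to 80.4). Of the 11664 that were not isolated, 9976 did, or 85.5% (84.9 to 86.2). The 2 intervals do not overlap, but with the top 50% of each list by score the order turned, to 94.4% against 94.1%. The isolated peaks were also weaker. The lowest quintile of H3K4me3 scores held 31.3% of the isolated peaks (26.9 to 36.1), against 20.9% of the non-isolated ones (20.1 to 21.6). Within that quintile 40.5% of isolated peaks were acetylated (32.2 to 49.4), against 50.3% of non-isolated ones (48.3 to 52.3). These intervals overlap slightly. In the second quintile the shares were 83.0% and 83.4%, and in the third 97.2% and 97.1%. All 50 isolated peaks of the fourth quintile and all 43 of the highest were acetylated, against 99.4% and 99.9% of the non-isolated peaks. With the non-isolated peaks weighted to the score quintiles of the isolated ones, their acetylated share was 79.5%, which left a difference of -3.06 percentage points in place of -9.10.

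The isolated peaks that lacked H3K27ac differed from the members in more than acetylation. The members had a median H3K4me3 score of 853 (616 to 1040) and a median width of 1108 bp (1047 to 1162). The 91 isolated peaks without H3K27ac had a median score of 90.4 (79.6 to 114) and a median width of 756 bp (668 to 798). Of these 91, 72 fell in the lowest quintile of H3K4me3 scores and none in the highest 2, or 79.1% in the lowest (69.7 to 86.2). This was not particular to isolated peaks. The 1688 non-isolated peaks under 2000 bp without H3K27ac had a median score of 110 (103 to 116) and a median width of 780 bp (757 to 802). Of them, 71.6% fell in the lowest quintile (69.4 to 73.7).

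Set against the other acetylated peaks, the members scored lower for both marks. Their median H3K4me3 score was 853 (616 to 1040) against 1236 (1200 to 1271), and their interquartile range of 276 to 1703 overlapped that of the other acetylated peaks, 448 to 2183. The median score of the H3K27ac peak on them was 380 (323 to 489) against 506 (495 to 521). The members were also slightly narrower, at 1108 bp (1047 to 1162) against 1169 bp (1160 to 1179), with intervals that overlap slightly. Members ran from 50.1 to 3233 in H3K4me3 score and from 50.2 to 3100 in H3K27ac score, against 50.0 to 3233 and 50.1 to 3223 for the other acetylated peaks.

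**Figure D1:**
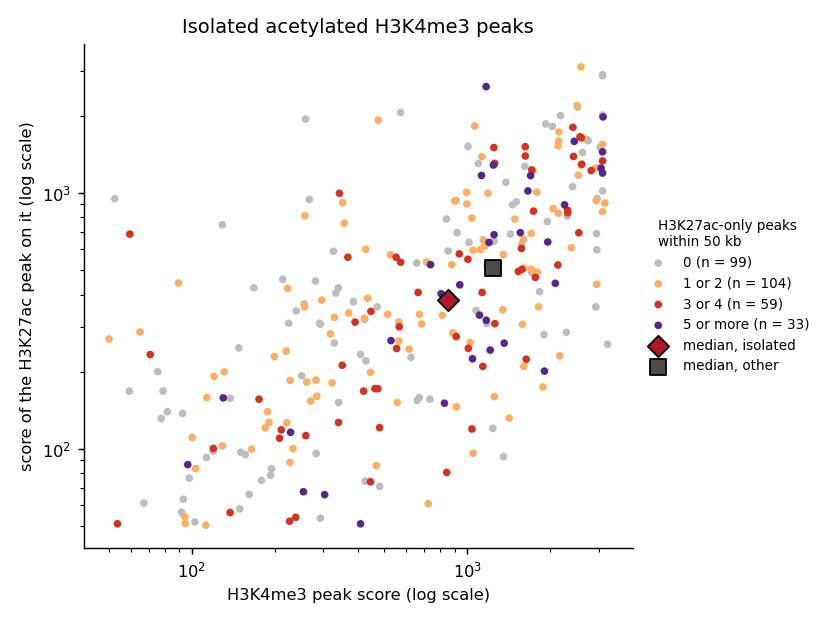
H3K4me3 peak score against the score of the H3K27ac peak on it for each of the 295 members, both on log axes, coloured by the number of H3K27ac-only peaks within 50 kb. The diamond marks the median of the members, 853 and 380, and the square that of the other acetylated peaks, 1236 and 506, and members of every colour are spread over the range of both scores.

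Members had a smaller share than the others in the highest quintile of both lists. The highest quintile of H3K4me3 scores held 14.6% of members (11.0 to 19.1) and 22.3% of the other acetylated peaks (21.5 to 23.1). The second lowest quintile held 28.1% of members (23.3 to 33.5) and 19.8% of the others (19.0 to 20.6). In the lowest quintile the shares were 16.6% (12.8 to 21.3) and 12.3% (11.6 to 12.9), with intervals that overlap slightly. A score of 3100 or more, where the scores pile up, was reached by 13 members, or 4.41% (2.59 to 7.39), and by 886 of the others, or 8.88% (8.34 to 9.46). In the H3K27ac list, 32.2% of members had a peak of the highest quintile (27.1 to 37.7), against 39.4% of the others (38.5 to 40.4). In its lowest quintile the shares were 8.14% (5.53 to 11.8) and 5.65% (5.22 to 6.12), with overlapping intervals.

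**Figure D2:**
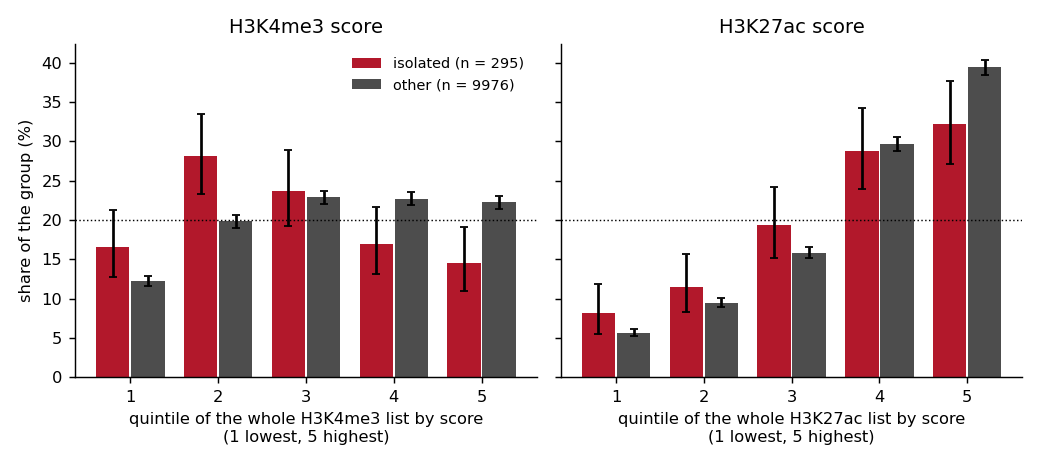
Share of the 295 members and of the 9976 other acetylated peaks in each quintile of the whole H3K4me3 list (left) and the whole H3K27ac list (right) by score, with Wilson 95% intervals as error bars and a dotted line at 20%. Members have the smaller share in the highest quintile of both lists, 14.6% against 22.3% for H3K4me3 and 32.2% against 39.4% for H3K27ac.

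Beyond a gap of 5 kb both median scores fell as the gap grew, with the members at the far end. Peaks with a neighbour within 5 kb broke this order. Among acetylated peaks under 2000 bp, those with a neighbour more than 5 and up to 10 kb away had the highest median H3K4me3 score, 1554 (1471 to 1620). The median was 1506 (1439 to 1577) at 10 to 20 kb and 1246 (1157 to 1322) at 20 to 50 kb. It was 1025 (890 to 1133) at 50 to 100 kb and 853 (616 to 1040) in the members. Peaks with a neighbour within 5 kb had a median of 876 (828 to 934), a value inside the interval of the members. The H3K27ac score followed the same order, with medians of 415 within 5 kb, 587 at 5 to 10 kb, 426 at 50 to 100 kb and 380 in the members. Acetylated shares of all H3K4me3 peaks under 2000 bp ran from 84.0% within 5 kb to 88.8% at 5 to 10 kb, 80.4% at 50 to 100 kb and 76.4% beyond 100 kb. The intervals at 50 to 100 kb and beyond 100 kb overlapped in both scores and in the acetylated share.

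**Figure D3:**
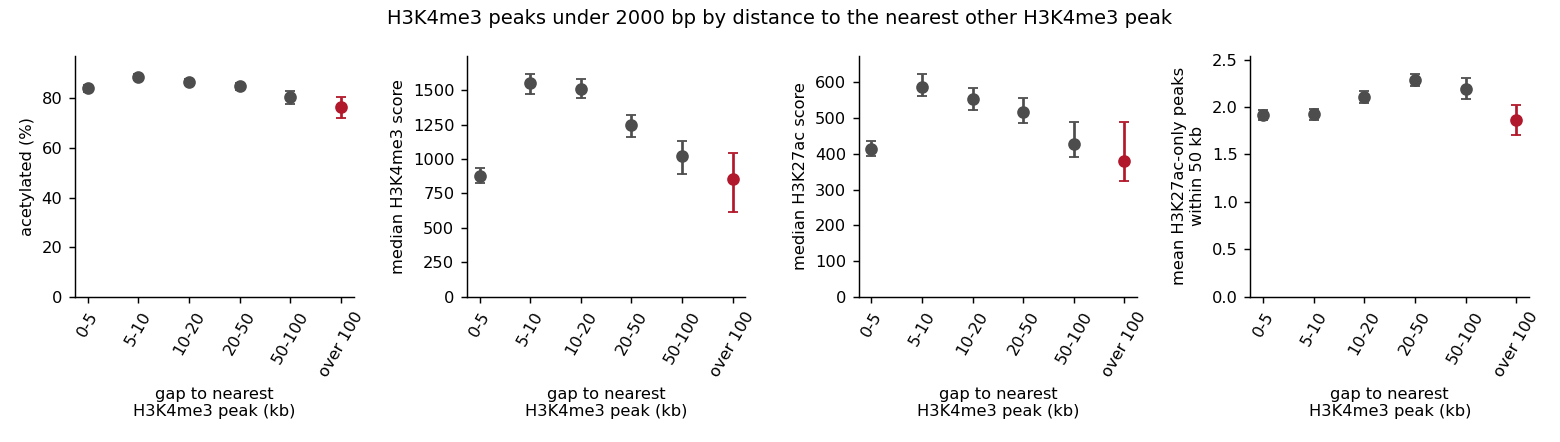
H3K4me3 peaks under 2000 bp grouped by the gap to the nearest other H3K4me3 peak in kb, with 95% intervals as error bars. The panels give the acetylated share, the median H3K4me3 score, the median H3K27ac score and the mean number of H3K27ac-only peaks within 50 kb (the last 3 for acetylated peaks), and the rightmost point of each panel is the isolated set, with medians of 853 and 380 for the 2 scores.

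Within quintiles of H3K4me3 score, the H3K27ac scores of members and other peaks were not separated by their intervals. In the lowest quintile of H3K4me3 scores the median H3K27ac score was 111 on members (92.3 to 156) and 139 on the others (130 to 151). In the middle quintile it was 507 (332 to 591) and 452 (434 to 472). In the highest it was 1292 (1171 to 1587) and 1151 (1121 to 1185). The intervals of members and others overlapped in all 5 quintiles. The intervals of the members were wide, so differences of moderate size would not have been detectable. Across the 295 members the 2 scores had a Spearman correlation of 0.69, and across the other acetylated peaks 0.68. Both scores come from peaks at the same place and may share local sequencing properties.

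Members with a strong H3K4me3 peak nearly all had a strong H3K27ac peak. Of the 43 members in the highest quintile of H3K4me3 score, 38 had an H3K27ac peak of the highest quintile, or 88.4% (75.5 to 94.9). A single one had an H3K27ac peak of the middle quintile, and none had one below. That member had the highest deposited H3K4me3 score among the members, 3233, with an H3K27ac score of 256. It measured 1019 bp at chromosome 12, 25886968 to 25887986. H3K27ac covered 72.7% of it, and the nearest H3K27ac-only peak was 295 kb away. In the other direction, 3 of the 49 members in the lowest H3K4me3 quintile had an H3K27ac peak of the highest quintile. These shares were not counted for the other acetylated peaks, so they are not read as particular to members. In the highest H3K4me3 quintile the others also had high H3K27ac scores, with a median of 1151 against 1292 and overlapping intervals.

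The next highest H3K4me3 scores belonged to members of various surroundings. In the whole H3K4me3 list 882 peaks scored exactly 3100, so the order of scores from 3100 up may not rank strength. A 1145 bp peak at chromosome 12, 20110084 to 20111228, scored 3161 and had an H3K27ac score of 911. A 1605 bp peak at chromosome 11, 4876205 to 4877809, scored 3114 with an H3K27ac score of 1977, and 7 H3K27ac-only peaks lay within 50 kb of it. A further 10 members scored exactly 3100, with H3K27ac scores between 844 and 2888. Of these 10, 5 had no H3K27ac-only peak within 50 kb, and the others had up to 6. The widest of the 10 were those on chromosome 16, 25724075 to 25726060, and chromosome 21, 25695453 to 25697398, with H3K27ac scores of 1993 and 2859 and none within 50 kb. The member with 6 lay on chromosome 15, 3950845 to 3952671, with an H3K27ac score of 1194, and is named after its values had been seen.

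The layout of the 2 marks on members and on other acetylated peaks differed by less than the counting intervals. H3K27ac covered a median of 89.0% of the H3K4me3 peak in members (87.0 to 91.2) and 87.3% in the others (86.9 to 87.6). Members covered completely made up 17.6% (13.7 to 22.4), against 14.6% of the others (13.9 to 15.3). H3K4me3 reached past H3K27ac at both ends in 35.6% of members (30.3 to 41.2) and in 37.5% of the others (36.6 to 38.5), and one mark was shifted against the other in 46.8% and 47.9%. The midpoints lay a median of 84.5 bp apart in members (71.5 to 96.5) and 91.0 bp apart in the others (88.5 to 93.5). H3K27ac was split into 2 or more peaks on 3 members. It covered under 50% of the H3K4me3 peak in 5 members, and the lowest coverage was 13.0%. The intervals of members and others overlapped in each of these quantities. The median width of the H3K27ac peak was 1008 bp on members (946 to 1081) and 1067 bp on the others (1056 to 1079), again with overlapping intervals.

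The acetylated surroundings did not choose the members. H3K27ac peaks that shared no base with any H3K4me3 peak, which are candidate enhancers, are called H3K27ac-only, and distances run from midpoint to midpoint. Since members lie over 100 kb from any other H3K4me3 peak, no H3K27ac-only peak within 50 kb of one member is closer to any other H3K4me3 edge. Windows around the other acetylated peaks overlap and count the same H3K27ac-only peak more than once, so the intervals of their means are too narrow. The rule still bears on the comparison. Every H3K27ac peak within 50 kb of a member, apart from its own, is H3K27ac-only by construction, whereas around the others some H3K27ac peaks lie on neighbouring H3K4me3 peaks and are not counted. The isolated peaks without H3K27ac share this property with the members.

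Close to the peak, the members and the others had densities of H3K27ac-only peaks with overlapping intervals, and further out the members had fewer. At 5 to 10 kb there were 21.1 H3K27ac-only peaks per Mb around members (16.2 to 27.1) and 21.5 around the others (20.6 to 22.4). At 10 to 20 kb there were 22.1 (18.5 to 26.3) and 21.2 (20.6 to 21.9). At 20 to 50 kb the densities were 18.8 (16.8 to 20.9) and 22.1 (21.8 to 22.5), and at 50 to 100 kb 16.2 (14.7 to 17.7) and 21.3 (21.0 to 21.6). Over the whole sequence that the peaks of each chromosome span, the density was 18.1 per Mb. The members thus crossed that level between 20 and 100 kb, and the others stayed above it from 5 kb on. Within 5 kb both were low. This stretch includes the H3K4me3 peak and its own H3K27ac, which take up sequence but are not counted. The counts behind the members' values were 8 peaks within 2 kb and 19 at 2 to 5 kb, giving 6.80 per Mb (2.93 to 13.4) and 10.8 per Mb (6.48 to 16.8).

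**Figure D4:**
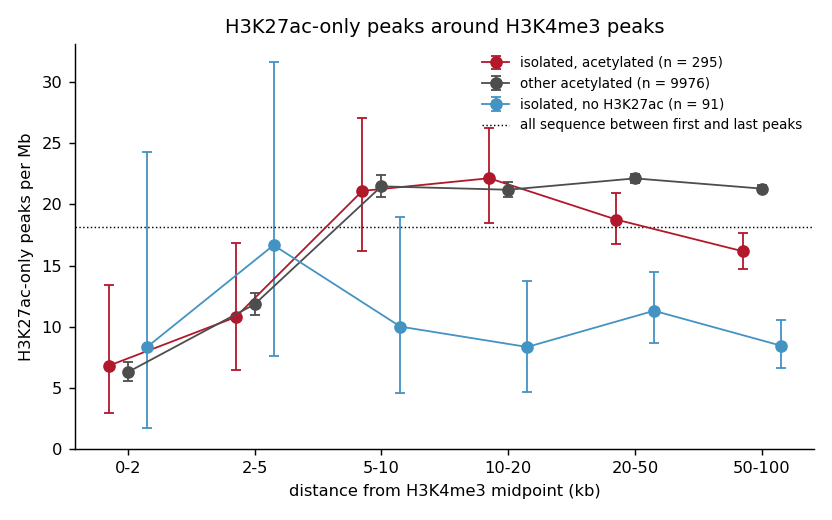
H3K27ac-only peaks per Mb by distance from the midpoint of the H3K4me3 peak, for the 295 members, the 9976 other acetylated peaks and the 91 isolated peaks without H3K27ac, with exact Poisson 95% intervals as error bars. The members follow the other acetylated peaks up to 20 kb and lie below them at 50 to 100 kb, at 16.2 against 21.3 per Mb, and the isolated peaks without H3K27ac lie lowest from 5 kb on.

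Counted to 50 kb, the surroundings of members were richer in H3K27ac-only peaks than those of isolated peaks without H3K27ac. This contrast was not separated from the H3K4me3 score. Members had a mean of 1.86 H3K27ac-only peaks within 50 kb (1.71 to 2.02), and the 91 isolated peaks without H3K27ac had 1.07 (0.864 to 1.30). Both sets are isolated by the same distance. Within 5 kb the order was reversed, with overlapping intervals. The definitions bear on this order. H3K27ac on a member is not counted, whereas every H3K27ac peak within 5 kb of an isolated peak without H3K27ac is. The means there were 0.0915 for members (0.0603 to 0.133) and 0.132 for isolated peaks without H3K27ac (0.0681 to 0.230). At 50 to 100 kb the densities were 16.2 per Mb (14.7 to 17.7) around members and 8.44 per Mb (6.65 to 10.6) around isolated peaks without H3K27ac. The score differs between these sets as given above. In the lowest quintile of H3K4me3 scores, members had a mean of 1.10 H3K27ac-only peaks within 50 kb (0.828 to 1.44). That was close to the mean of all isolated peaks without H3K27ac, so acetylation and score were not set apart here. Among non-isolated peaks under 2000 bp the means were alike, 2.06 (2.03 to 2.09) with H3K27ac and 2.04 (1.97 to 2.10) without.

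The number of H3K27ac-only peaks within 50 kb varied widely among members. There were none for 99 members, 1 for 57, 2 for 47 and 3 or more for 92, with a maximum of 9. The mean of 1.86 (1.71 to 2.02) was below that of the other acetylated peaks, 2.06 (2.03 to 2.09). The order turned with isolation by 50 kb (2.09 against 2.05) and without a width limit (2.13 against 2.11). Acetylated peaks with a neighbour within 5 kb had 1.92 and those at 5 to 10 kb had 1.93, both inside the interval of the members. H3K27ac on such close neighbours is left out of the count, so these means are not like for like with that of the members. At 10 to 20, 20 to 50 and 50 to 100 kb the means were higher, at 2.11, 2.29 and 2.19. The peaks at 50 to 100 kb also have no other H3K4me3 edge within 50 kb. Their interval, 2.08 to 2.30, lay above that of the members. Members with no H3K27ac-only peak within 50 kb made up 33.6% (28.4 to 39.1), against 22.2% of the others (21.4 to 23.1). Within 100 kb the shares were 17.6% (13.7 to 22.4) and 7.12% (6.63 to 7.64). At the other end, 11.2% of members had 5 or more within 50 kb (8.08 to 15.3), against 10.9% of the others (10.3 to 11.5).

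The weakest members had the poorest surroundings. In the lowest H3K4me3 quintile the mean number within 50 kb was 1.10 for members (0.828 to 1.44), against 1.98 for the others (1.90 to 2.06). In the second it was 1.82 (1.54 to 2.13) and 2.22 (2.15 to 2.29). In the 3 higher quintiles the means of members were 2.34, 2.04 and 1.81, and those of the others 2.12, 2.06 and 1.90, with overlapping intervals in each. With the others weighted to the score quintiles of the members, their mean was 2.08. The difference of members from others was then -0.220 in place of -0.197. Ordered by surroundings, the median H3K4me3 score was 573 (334 to 1007) for the 99 members with none within 50 kb. It was 768 (475 to 1051) with 1 or 2, 936 (481 to 1258) with 3 or 4, and 1200 (940 to 1661) for the 33 with 5 or more. The intervals of neighbouring classes overlap, and across the 295 members the Spearman correlation was 0.13. For the H3K27ac score of the member it was 0.01.

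The number of H3K27ac-only peaks around members was higher the wider the member. Members under 1000 bp, 115 in number, had a mean of 1.43 H3K27ac-only peaks within 50 kb (1.22 to 1.67). The 126 members of 1000 to 1500 bp had 1.74 (1.52 to 1.98), with an interval that overlaps that of the narrower members. The 54 members of 1500 to 2000 bp had 3.06 (2.61 to 3.56). Members of 1500 to 2000 bp thus had 2.13 times as many as those under 1000 bp, and their intervals do not overlap. The same ratio was 1.26 for the other acetylated peaks, with 1.91 (1.86 to 1.96), 2.02 (1.98 to 2.06) and 2.40 (2.33 to 2.47) in the same width classes. The order of the means of members and others was therefore opposite at the 2 ends, with members lower under 1000 bp and higher at 1500 to 2000 bp. Beyond the limit of the rule, the 47 isolated acetylated peaks of 2000 bp or wider had a mean of 3.83 (3.29 to 4.43), and the 747 others of that width had 2.81 (2.69 to 2.93). Members without any H3K27ac-only peak within 50 kb made up 40.9% under 1000 bp (32.3 to 50.0) and 20.4% at 1500 to 2000 bp (11.8 to 32.9). For the other acetylated peaks these shares were 25.1% (23.7 to 26.7) and 17.9% (16.3 to 19.7). Within the width limit of the rule the order of this share did not turn, and at 1500 to 2000 bp its intervals overlap. At 2000 bp or wider it turned, to 8.51% of the isolated acetylated peaks against 14.3% of the others, with overlapping intervals. The median H3K4me3 score of members was 342 under 1000 bp and 1945 at 1500 to 2000 bp, so width and score were not set apart here.

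The H3K27ac-only peaks beside members had scores and widths close to those beside other peaks. For 1001 of the 12938 H3K27ac-only peaks the nearest H3K4me3 midpoint was a member, or 7.74% (7.29 to 8.21), which is 3.39 per member. Each of the other acetylated peaks was nearest to 0.838 on average. This gap follows from the long territories that the rule gives members. Within 50 kb of members, the 549 H3K27ac-only peaks had a median score of 110 (100.4 to 119) and a median width of 1009 bp (942 to 1091). The 7069 nearest to the others and within 50 kb had a median score of 112 (109 to 114) and a median width of 1057 bp (1035 to 1077). Only 14 of the 549 belonged to the highest quintile of the H3K27ac list, or 2.55%, against 2.77% of the 7069. Of the 139 members with 2 or more within 50 kb, 54 had all of them on one side, or 38.8% (31.2 to 47.1). The same share was not counted for the other acetylated peaks, so whether it is particular to members was not tested.

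The 7 members with 7 or more H3K27ac-only peaks within 50 kb were found on 5 chromosomes. The highest number within 50 kb, 9, was found around an 1800 bp peak at chromosome 23, 532188 to 533987, with 5 on one side and 4 on the other. It had an H3K4me3 score of 1212 and an H3K27ac score of 243, and H3K27ac covered 62.6% of it. The member on chromosome 20 from 6344531 to 6345357 had 8 and an H3K27ac score of 1167. That on chromosome 22 from 6860975 to 6862071 also had 8, with an H3K27ac score of 225. The third with 8 lay on chromosome 23 from 6643291 to 6644012, with an H3K27ac score of 264. A strong H3K27ac peak on the member itself was therefore not common to these regions. Next came 3 members with 7 each. One was the member of chromosome 11 at 4876205 to 4877809, where 6 of the 7 lay on the side of higher coordinates. The other two lay on chromosome 12, at 22082439 to 22083913 and at 27377173 to 27377898, with H3K27ac scores of 698 and 317.

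For some dense acetylated clusters the nearest H3K4me3 peak, though over 10 kb away, was a member. Joining H3K27ac-only peaks whose edges lay within 10 kb of each other gave 167 domains of 5 or more peaks. A member was the nearest H3K4me3 peak for 9 of them, or 5.39% (2.86 to 9.92), a different member each time. This share compares with the 2.29% of H3K4me3 peaks that are members and lies within counting error of the 7.74% of H3K27ac-only peaks nearest to them. The edges of these 9 domains lay 10.2 to 69.8 kb from the member, with a median of 31.9 kb, and the domains held 5 to 7 peaks. The 9 members had H3K4me3 scores between 410 and 3161. A domain of 7 peaks lay at chromosome 15, 6311688 to 6370244, and was 20.1 kb from a member at 6390309 to 6391114. That member had an H3K27ac score of 50.9, the second lowest of the 295, and 15 H3K27ac-only peaks within 100 kb.

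Members in the largest gaps ranged from weak to strong. The largest gap, 889 kb, surrounded a narrow peak of 381 bp (chromosome 11, 12116638 to 12117018), whose next neighbour on the other side was 972 kb away. Its H3K4me3 score was 70.8, it was fully covered by an H3K27ac peak of score 233, and 4 H3K27ac-only peaks lay within 50 kb. At chromosome 1, 6992774 to 6993930, gaps of 545 and 2448 kb flanked a member of score 656 with none within 50 kb. At chromosome 2, 5649407 to 5650357, gaps of 538 and 525 kb flanked a member of score 1246 with an H3K27ac score of 1282, and 11 H3K27ac-only peaks lay within 100 kb. At chromosome 21, 2849479 to 2850954, the gaps were 521 and 2181 kb. This member scored 2589 and had the highest deposited H3K27ac score of all members, 3100, with 1 H3K27ac-only peak within 100 kb. In the whole H3K27ac list 62 peaks scored exactly 3100, so this score may not rank strength. At chromosome 20, 23115939 to 23116743, gaps of 507 kb on both sides flanked a member of score 283, with no H3K27ac-only peak within 100 kb.

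**Figure D5:**
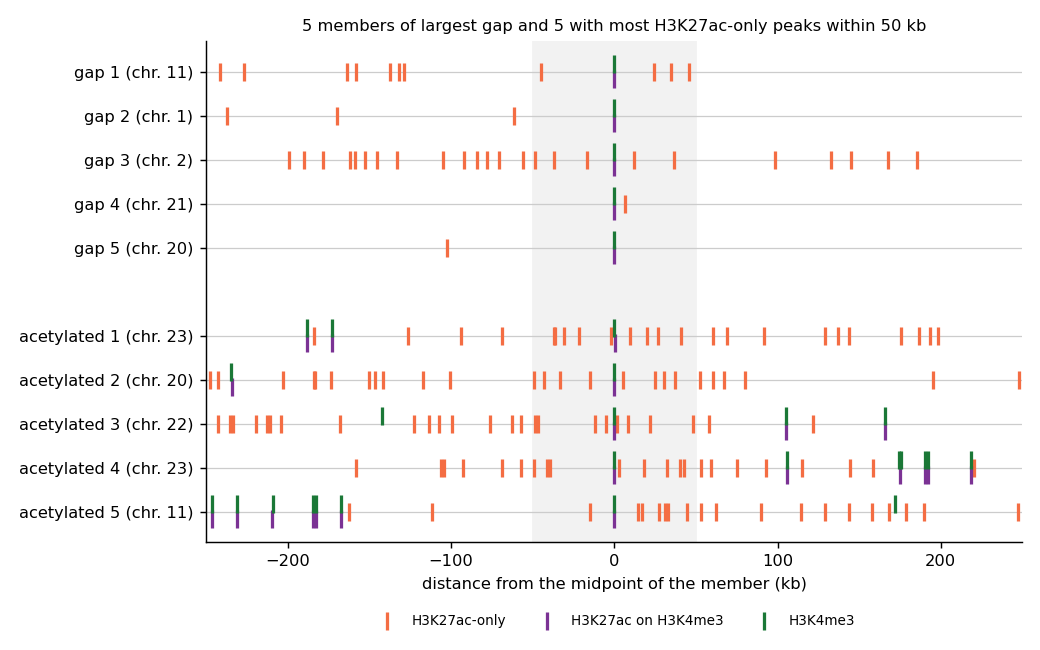
Peaks within 250 kb of 10 members, drawn by distance from the member's midpoint in kb, with H3K4me3 above each line, H3K27ac peaks on H3K4me3 below it and H3K27ac-only peaks on it; the shaded band is 50 kb to either side. The upper 5 members have the largest gaps and 0 to 5 H3K27ac-only peaks within the band, and the lower 5 were chosen for most such peaks and have 7 to 9, the last being 1 of 3 members with 7.

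The scores of members with and without acetylated surroundings had overlapping intervals. The 52 members with no H3K27ac-only peak within 100 kb had a median H3K4me3 score of 679 (293 to 1434) and a median H3K27ac score of 425 (285 to 628). The 243 with at least 1 had medians of 902 (616 to 1051) and 376 (312 to 494). The 14 members with 10 or more within 100 kb had a median H3K4me3 score of 1229 (722 to 2543). High H3K27ac scores occurred with and without acetylated surroundings. The second highest H3K27ac score of the members, 2888, was that of a member on chromosome 17 from 31128183 to 31129515 (1333 bp), with no H3K27ac-only peak within 100 kb. The fourth highest, 2596, was that of a member on chromosome 3 from 29185449 to 29186359 (911 bp), with 15. These 2 members were picked after their values had been seen.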

How the data were processed

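Bowtie, an aligner of short reads, is named in the submitters' processing notes. MACS, a peak caller, is named in the authors' peak names. For both, version and settings are not given in the sources used, and neither are the control library, genome build and pooling. The score that the authors deposited for each peak comes from the peak caller, has no stated unit and was used within its list only. Peaks continued past the last gene of the gene table at hand (ASM223467v1) on 8 of 24 chromosomes, so genes and sequences were not used, and positions count from 1 in the authors' build.

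Members, spacing, overlaps (at least 1 bp, checked with bedtools 2.31.1) and neighbours were computed with Python 3.11.15, NumPy 2.4.6 and pandas 2.3.3. Shares carry Wilson, counts exact Poisson and medians binomial order-statistic 95% intervals (SciPy 1.17.1), and figures were drawn with matplotlib 3.10.9. The routines were tested on simulated data. Quintiles are of whole lists. Named regions are the 5 members of largest gap, most H3K27ac-only peaks within 50 kb and highest H3K4me3 score, and those nearest the limits of the rule; ties were broken by width (score only), then position, and others are stated. The members and comparisons were chosen with earlier results of these data known. Classes by width, by quintile of score and by surroundings were chosen after the data had been seen.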

Additional observations from a re-analysis of the deposited data

How the results depend on the processing

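Of 72 values (8 results under 9 alternatives), 40 stayed within the reported interval, or within 1.5 times the reported number of members, and 32 did not. Isolation by 50 kb gave 982 members in place of 295, 2.09 H3K27ac-only peaks within 50 kb in place of 1.86 and 28.1% with none in place of 33.6%. Isolation by 200 kb gave 51 members, a median H3K4me3 score of 421 in place of 853, a width of 1022 bp in place of 1108, a coverage of 91.7% in place of 89.0%, 1.55 peaks within 50 kb, 41.2% with none and an acetylated share of 68.9% in place of 76.4%. Members under 1000 bp numbered 115, with medians of 342 for H3K4me3 score, 776 bp for width, 220 for H3K27ac score in place of 380 and 93.4% for coverage, 1.43 peaks within 50 kb, 40.9% with none and an acetylated share of 61.5%. Without a width limit the median width was 1179 bp and the mean number of peaks within 50 kb 2.13. With the top 50% of each list by score there were 518 members, with medians of 1944 for H3K4me3 score, 1314.5 bp for width and 837 for H3K27ac score, 0.944 peaks within 50 kb, 43.6% with none and an acetylated share of 94.4%. Without the lowest quintile of H3K4me3 peaks, an alternative chosen after seeing the data, the score was 1129, the width 1184.5 bp, the mean 2.09, 27.5% had none and the acetylated share was 93.8%. The acetylated share of the non-isolated peaks was 94.1% with the top 50% of each list and 94.8% without the lowest quintile, against 85.5% as reported, so the smaller share of isolated peaks turned in the first case and nearly closed in the second. The acetylated share was itself added after seeing the data. Coverage of 50% in place of 1 bp, and leaving out chromosome ends or borders of stretches over 500 kb without peaks, moved no value out of its interval.

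The median scores of members were below those of the other acetylated peaks for both marks under all 9 alternatives. Members also more often had no H3K27ac-only peak within 50 kb under all 9. Only the order was compared. The others' median H3K27ac score lay inside the members' interval with isolation by 200 kb, under 1000 bp and with the top 50% of each list. Under 1000 bp the same held for the H3K4me3 score. The members' mean number of H3K27ac-only peaks within 50 kb was below that of the others under 7 of 9. It was above with isolation by 50 kb (2.09 against 2.05) and without a width limit (2.13 against 2.11). The width order turned with the top 50% of each list (1314.5 against 1302 bp), and the coverage order with isolation by 50 kb (87.1% against 87.3%). No paired analysis was possible because the lists are single ones of different marks. Read depth is unknown.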
